A study of Mus musculus with 18 samples.

Results

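The mRNAs of 7 presynaptic proteins were followed through axoplasm and Kif5A precipitates of mouse sciatic nerve and dorsal root. They were Snap25, Vamp1 and Vamp2, which encode SNARE proteins, and Syp, Sv2a, Syn1 and Syn2, which encode proteins of synaptic vesicles. A gene was taken when its name matched 1 of these 7 in either count table, and its raw counts were summed over the transcripts that both tables list (for Syn1, over its transcript in the dorsal root table). All 7 of the 15552 genes named in the tables were found in the dorsal root table, and 6 of them, all but Syn1, in the sciatic nerve table.

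Axoplasm of C57B6 mice was taken at 2 places, the sciatic nerve and the dorsal root, and sequenced in 18 libraries, with 3 in each of 6 groups. Each tissue gave RNA precipitated with a rabbit antibody to Kif5A, a heavy chain of the kinesin-1 motor, RNA precipitated with rabbit IgG as isotype control, and RNA of the input axoplasm. Every library came from an independent repeat of 5 pooled animals, both tissues were taken from the same animals, and strain is the only property of the animals that is stated. Axoplasm here was the soluble lysate of ground tissue, so RNA of Schwann cells and other cells of the tissue was part of it, and fewer cells of a type cannot be told apart from less RNA per cell.

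Vesicle fusion is driven by SNARE proteins: Snap25 and syntaxin on the plasma membrane and Vamp1 or Vamp2 on the vesicle zip into a helical bundle that draws the membranes together. Syp (synaptophysin) and Sv2a span the vesicle membrane, and the synapsins Syn1 and Syn2 sit on its outer face and hold vesicles in reserve. In sensory neurons these proteins are carried along microtubules to release sites in the spinal cord and in the skin.

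Counts of named genes were between 11584418 and 22580824 per library. IgG libraries had between 5.65% and 9.18% of genes at 0 counts, Kif5A libraries between 0.685% and 2.01%, and inputs between 0.362% and 1.06%. Input replicate 3 of sciatic nerve stood apart, with a mean correlation of 0.910 with its group against 0.943 and 0.949 for the others. The comparison between the inputs is therefore given also without it, for members, lists and markers. Ratios to the sciatic nerve input are given without it only where stated, and mean levels include it. Of 17 sensory neuron markers 8 were in both tables, Nefl, Nefm and Tubb3 among them, whereas Prph, Scn9a and Trpv1 were in neither. The p-values below measure the spread between these pooled repeats.

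Levels, written CPM, are counts divided by the TMM-scaled total of named counts and put on the usual CPM scale, and CPM per kilobase of transcript is used wherever genes are set against each other. In sciatic nerve input the mean level per kilobase was highest for Vamp2 at 172, followed by Snap25 at 13.8, Syp at 9.35, Vamp1 at 1.75, Syn2 at 0.263 and Sv2a at 0.193. Replicate 3 raised the Vamp2 mean, at 293 against 112 in each of the others. In dorsal root input it was 294 for Snap25, 180.3 for Vamp2, 26.4 for Syp, 14.4 for Sv2a, 7.64 for Syn2, 2.62 for Vamp1 and 0.0993 for Syn1. Snap25 and Vamp2 held the first 2 places in both inputs, in opposite order. Syn1 was near the limit of detection.

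**Figure D1:**
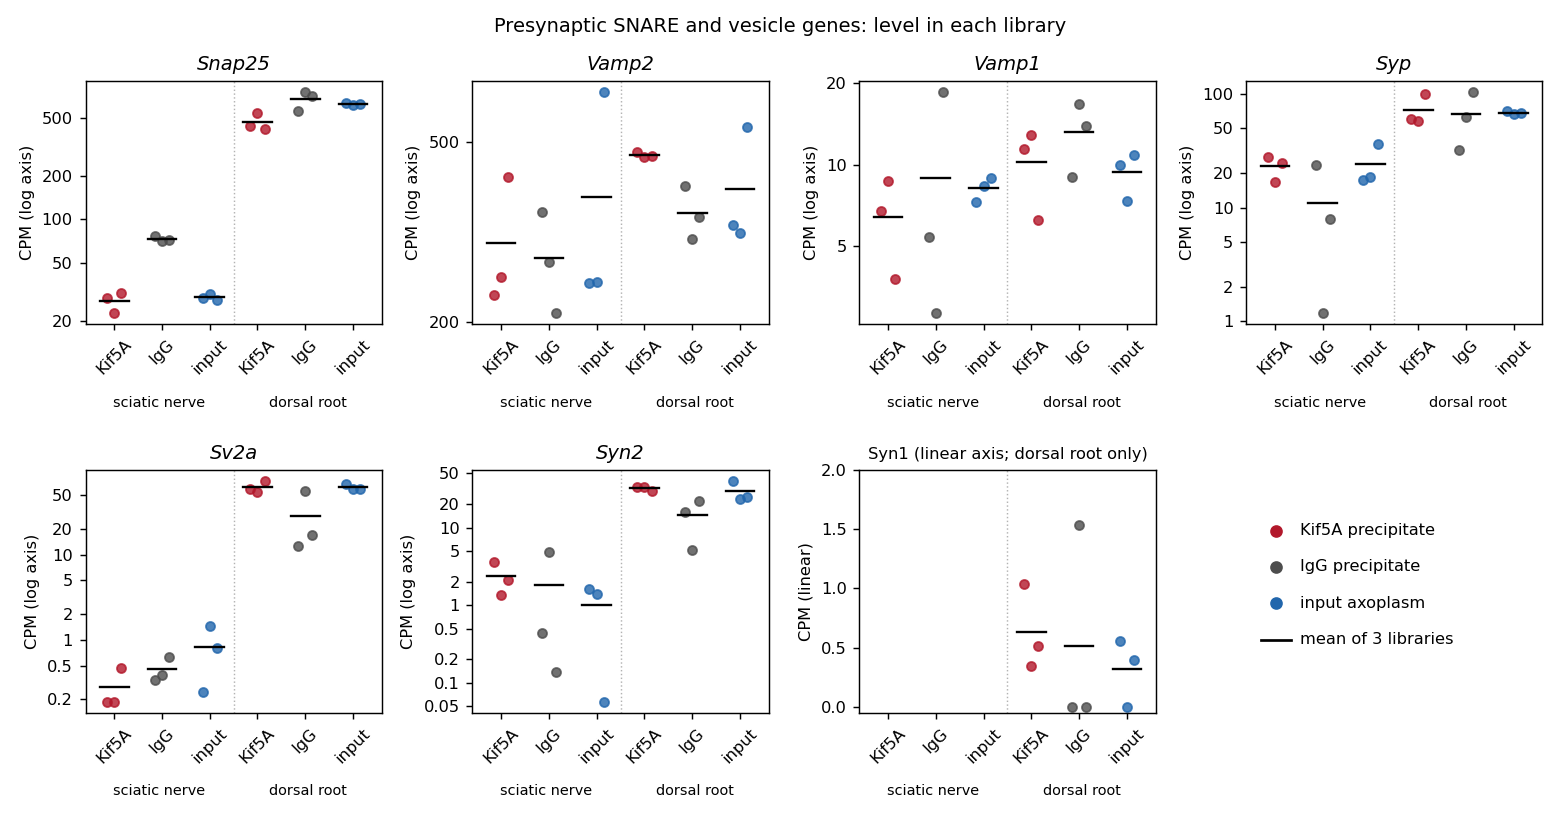
Level of each gene in each of the 18 libraries, in CPM on a log axis (linear for Syn1), by precipitate or input and tissue; points are libraries and black lines means of 3. Snap25, Sv2a and Syn2 lie lower in all 9 sciatic nerve libraries than in any dorsal root library, while the tissues overlap for Vamp1 and Vamp2.

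Of the 6 genes measured in both inputs, 4 were lower in sciatic nerve than in dorsal root: Sv2a, Syn2, Snap25 and Syp. The quasi-likelihood test of edgeR with Benjamini-Hochberg adjustment called these 4 at an adjusted p under 0.05, where 1.78% of the 12215 genes tested were called lower. The same 4 had all 3 sciatic nerve libraries below all 3 of dorsal root, as did 11.1% of genes. Vamp1 and Vamp2 were not called. The median log2 fold change of the 6 was −2.94, against 0.06 over all genes tested. Without sciatic nerve input replicate 3 the same 4 were called, where 1222 of 12330 genes were called lower, and the median of the 6 was −3.10.

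Snap25, at chr2:136713453-136782428 on the plus strand (GRCm38), encodes the plasma membrane SNARE that supplies a pair of helices to the bundle. Its level was 28.9, 30.9 and 27.9 CPM in sciatic nerve inputs, against 631, 607 and 625 CPM in dorsal root inputs. The replicates of each input lay within a narrow band, far from the other. The log2 fold change, sciatic nerve over dorsal root, was −4.40 ± 0.23 (SE), 21.0-fold lower, with an adjusted p of 1.39e-05, and −4.37 without sciatic nerve input replicate 3. Across the 6 groups its mean level stood in the order dorsal root IgG, dorsal root input, dorsal root Kif5A, sciatic nerve IgG, sciatic nerve input and sciatic nerve Kif5A. The libraries of the first 2 of these overlapped and so did those of the last 2, whereas the groups between were separate.

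Sv2a, at chr3:96181151-96195521 on the plus strand, encodes a vesicle glycoprotein that is the binding site of the drug levetiracetam. Sciatic nerve inputs held 4, 17 and 14 counts of it (0.247, 1.47 and 0.796 CPM), against 1218, 951 and 892 counts in dorsal root inputs (68.0, 59.7 and 59.1 CPM). Sv2a was the member with the lowest level per kilobase in sciatic nerve and the fourth in dorsal root. It was 75.8-fold lower in sciatic nerve, a log2 fold change of −6.24 ± 0.54 (SE) with an adjusted p of 3.17e-04, and −6.30 without sciatic nerve input replicate 3.

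Syn2, at chr6:115134902-115282006 on the plus strand, encodes synapsin II, a phosphoprotein that ties vesicles to each other and to actin. Its level was 1.60, 1.38 and 0.0569 CPM in sciatic nerve inputs, against 40.1, 23.6 and 24.6 CPM in dorsal root inputs. The lowest of these libraries, sciatic nerve replicate 3, held a single count. Syn2 was 29.3-fold lower in sciatic nerve (log2 −4.87 ± 0.79 SE, adjusted p 0.00955). Without dorsal root input replicate 1, the highest library, the log2 fold change was −4.57 and the adjusted p 0.0604, and without sciatic nerve input replicate 3 the log2 fold change was −4.28. In the dorsal root a shorter transcript, Syn2-201, held a mean of 19.7% of the Syn2 counts with Kif5A, 21.1% with IgG and 30.7% in the input, and it was not in the sciatic nerve table.

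Promoter windows are shown for Sv2a and Syn2, the members with the largest fold changes between the inputs. Each runs from 250 bases before to 50 after the RefSeq start (GRCm38.p6, plus strand), and capitals mark the GC box GGGCGG or its reverse complement.
Sv2a promoter, chr3:96180977-96181276: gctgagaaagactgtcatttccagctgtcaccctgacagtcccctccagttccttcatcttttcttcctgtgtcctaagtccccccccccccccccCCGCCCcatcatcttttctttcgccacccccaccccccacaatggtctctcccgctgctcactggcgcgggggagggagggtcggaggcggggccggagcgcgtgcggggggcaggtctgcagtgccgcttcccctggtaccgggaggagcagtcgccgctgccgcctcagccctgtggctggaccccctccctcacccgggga
Syn2 promoter, chr6:115134652-115134951: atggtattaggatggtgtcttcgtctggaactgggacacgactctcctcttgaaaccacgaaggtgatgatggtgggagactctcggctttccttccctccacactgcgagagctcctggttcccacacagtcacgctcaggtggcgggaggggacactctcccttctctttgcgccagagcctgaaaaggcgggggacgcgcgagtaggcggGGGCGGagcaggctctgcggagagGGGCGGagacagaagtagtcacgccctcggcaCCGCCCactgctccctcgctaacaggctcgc
The Sv2a window held 1 match and the Syn2 window 3, without overlap with another motif searched. Of all 32851 promoter windows of this length, 35.7% held GGGCGG on either strand. The Syp window held 2 matches, that of Vamp1 held 1 and that of Syn1 none. CCAAT on either strand, present in 37.4% of windows, matched 3 times in the Vamp1 window and in none of the first windows of Sv2a, Syn2 and Syp. A second Syn2 window, chr6:115238744-115239043, held 2 matches of CCAAT and 0 of GGGCGG. The 9 letters TTCAGCACC, a core of the neuron-restrictive silencer element, matched once in the Syn1 window and in 0.371% of all windows.

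Syp, at chrX:7638471-7653256 on the plus strand, encodes synaptophysin, which binds Vamp2 in the vesicle membrane. It had 17.6, 18.7 and 36.4 CPM in sciatic nerve inputs, against 71.2, 66.6 and 67.8 CPM in dorsal root inputs. The sciatic nerve libraries were all lower, with replicate 3 the nearest to the dorsal root. Syp was 2.78-fold lower in sciatic nerve (log2 −1.48 ± 0.33 SE, adjusted p 0.0434). This call was close to the threshold: it was lost with the size factors of DESeq2 (adjusted p 0.0520), for the transcript Syp-201 alone (0.0534) and when any 1 of 5 of the 6 inputs was left out (0.159 to 0.194). Without sciatic nerve input replicate 3 it was called, at a log2 fold change of −1.91. Of the bases of Syp-201, 33.8% overlap Gm14703 on the opposite strand, and reads of the pair cannot be told apart, since no source used here states whether counting used the strand.

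Syn1, at chrX:20860511-20921004 on the minus strand, encodes synapsin I. Dorsal root libraries held 19, 6 and 10 counts of it with Kif5A, 0, 20 and 0 with IgG, and 10, 0 and 6 in the inputs. The groups overlapped, no library exceeded 1.54 CPM, and Syn1 was not tested.

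Vamp2, at chr11:69088490-69092384 on the plus strand, encodes the main vesicle SNARE of central synapses. Its level was 244, 246 and 642 CPM in sciatic nerve inputs, against 327, 315 and 537 CPM in dorsal root inputs. Replicate 3 was the highest of both groups, and the groups overlapped. The log2 fold change was −0.03 (95% interval −0.99 to 0.92, adjusted p 0.989). Without sciatic nerve input replicate 3 it was −0.68, with an adjusted p of 0.0538.

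Vamp1, at chr6:125215551-125245964 on the plus strand, encodes the vesicle SNARE of many spinal and motor terminals. It had 7.28, 8.37 and 8.93 CPM in sciatic nerve inputs, against 9.996, 7.34 and 10.9 CPM in dorsal root inputs. These groups overlapped as well, and the log2 fold change was −0.18 (95% interval −0.96 to 0.59, adjusted p 0.900), and −0.26 without sciatic nerve input replicate 3 (adjusted p 0.621). The difference between the Vamp genes and the other members was not tested.

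The paralogs Vamp1 and Vamp2 are alike in coding sequence, so the exon that encodes most of the SNARE motif is shown for both (GRCm38, plus strand, 5′ to 3′), with capitals at the bases that differ.
Vamp1-201 exon 3, chr6:125218911-125219069: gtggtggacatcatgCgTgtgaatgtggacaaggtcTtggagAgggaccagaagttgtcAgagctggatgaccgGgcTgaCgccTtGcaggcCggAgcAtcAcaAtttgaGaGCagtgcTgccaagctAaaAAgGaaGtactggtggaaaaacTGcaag
Vamp2-201 exon 3, chr11:69089731-69089889: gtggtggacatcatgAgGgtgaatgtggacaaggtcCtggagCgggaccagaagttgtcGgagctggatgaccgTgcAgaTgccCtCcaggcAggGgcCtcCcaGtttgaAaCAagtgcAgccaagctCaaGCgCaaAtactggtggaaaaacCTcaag
Of these 159 bases 26 differed, an identity of 83.6%, and the longest run that the transcripts Vamp1-201 and Vamp2-201 share was 18 bases. For Syn1-201 and Syn2-202 the longest shared run was 26 bases.

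**Figure D2:**
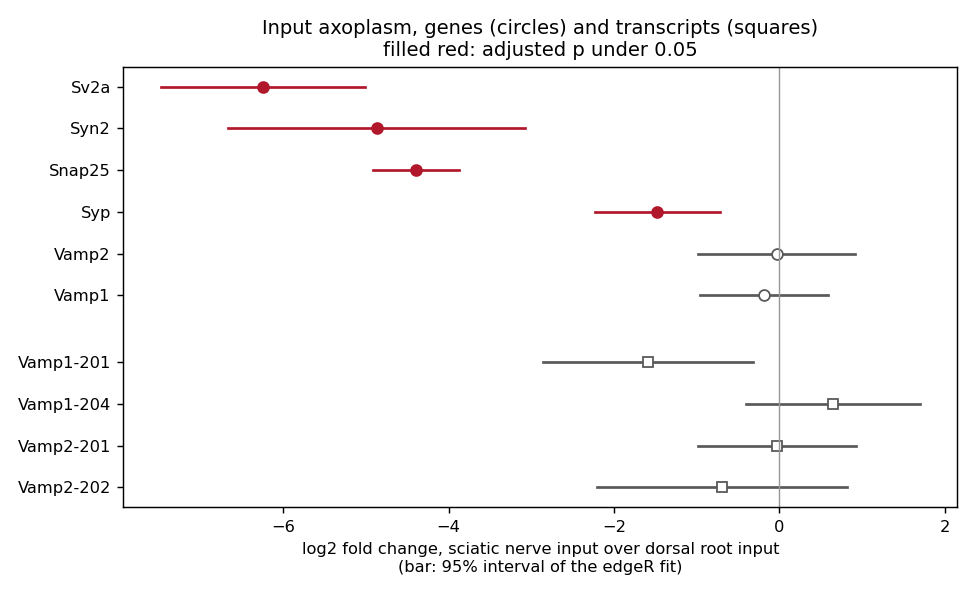
Log2 fold change of sciatic nerve input over dorsal root input for 6 genes (circles) and for the transcripts of Vamp1 and Vamp2 (squares), with 95% intervals of the edgeR fit; filled red marks an adjusted p under 0.05. Sv2a, Syn2, Snap25 and Syp lie between −6.24 and −1.48 and are filled. The intervals of the gene sums of Vamp1 and Vamp2 include 0. That of the transcript Vamp1-201 (−2.86 to −0.32) lies below 0, without an adjusted p under 0.05.

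The sum over Vamp1 joined 2 transcripts whose proportions were not the same in the inputs. Vamp1-201 encodes the protein, whereas Vamp1-204 is a processed transcript of 2 exons and 5709 bases at chr6:125231276-125245964 that shares 0 exon bases with Vamp1-201 and begins 8969 bases past its end. On the opposite strand, Tapbpl (chr6:125223933-125231860) lies mostly before the start of Vamp1-204 and overlaps its first bases, and Cd27 (chr6:125232622-125237010) lies within its span. Vamp1-204 held 76.3%, 90.7% and 71.3% of the Vamp1 counts in sciatic nerve inputs, against 53.1%, 32.5% and 44.5% in dorsal root inputs. Its share was higher in every sciatic nerve input than in any dorsal root input. How often this holds for transcripts of other genes is not given here. Counts of Vamp1-201 were 28, 9 and 45 in sciatic nerve inputs, against 84, 79 and 91 in dorsal root inputs. The log2 fold change of Vamp1-201 was −1.59 ± 0.57 (SE, adjusted p 0.247 over 15607 transcripts) and that of Vamp1-204 was 0.65 ± 0.47 (adjusted p 0.691), so neither passed the threshold. Without sciatic nerve input replicate 3 Vamp1-201 was called lower in sciatic nerve, at −2.03 ± 0.53 (SE, adjusted p 0.0208 over 15877 transcripts). Vamp1-204 was not called, at 0.64 ± 0.45 (adjusted p 0.362). Calls were frequent in this setting, where 1222 of 12330 genes were called lower, and the share of transcripts called is not given here.

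The same share varied widely in precipitates. It was 93.5%, 82.7% and 50.0% with Kif5A in sciatic nerve, 86.5%, 1.72% and 97.1% with IgG in sciatic nerve, 83.7%, 73.2% and 49.6% with Kif5A in dorsal root, and 97.8%, 89.0% and 75.1% with IgG in dorsal root. In dorsal root the IgG libraries lay above all 3 inputs, and in sciatic nerve IgG replicate 2, with 57 of its 58 Vamp1 counts on Vamp1-201, stood apart. The dorsal root IgG libraries held 3, 24 and 60 counts of Vamp1-201. The share of transcripts of other genes with such a separation is not given here.

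Vamp2 has a second coding transcript, Vamp2-202, of 1113 bases, which reads on into the intron after exon 4. Coding bases from exon 4 on are shown because the 2 transcripts differ in the letters after exon 4 (GRCm38, plus strand). The Vamp2-201 stretch runs to its coding end, whereas the Vamp2-202 stretch was cut at a fixed length and does not mark a coding end. Capitals mark exon 5 in Vamp2-201 and, in Vamp2-202, the bases that Vamp2-201 splices out.
Vamp2-201, chr11:69089976-69090027 and chr11:69090650-69090663: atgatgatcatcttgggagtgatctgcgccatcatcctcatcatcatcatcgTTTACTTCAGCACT
Vamp2-202, chr11:69089976-69090087: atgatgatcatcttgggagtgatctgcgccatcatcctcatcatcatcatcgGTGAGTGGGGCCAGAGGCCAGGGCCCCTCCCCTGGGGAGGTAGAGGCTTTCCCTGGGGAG
Vamp2-202 held 0.833%, 0.456% and 0.699% of the Vamp2 counts in sciatic nerve inputs, against 2.01%, 1.31% and 0.370% in dorsal root inputs. It was a minor form in both inputs. Its log2 fold change between them was −0.70 ± 0.67 (SE, adjusted p 0.797), and −1.41 ± 0.61 without sciatic nerve input replicate 3 (adjusted p 0.135).

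In precipitates the share of Vamp2-202 was 2.61%, 2.66% and 0.142% with Kif5A in sciatic nerve and 6.08%, 5.53% and 1.89% with Kif5A in dorsal root. With IgG it was 4.58%, 19.0% and 0.0216% in sciatic nerve and 11.5%, 11.5% and 2.73% in dorsal root. Replicate 3 had the lowest share in all groups but the sciatic nerve input. For IgG over input its log2 fold change was 3.12 ± 1.31 in sciatic nerve (SE, adjusted p 0.195) and 2.81 ± 1.29 in dorsal root (adjusted p 0.246). For Kif5A over input in dorsal root it was 2.32 ± 1.27 (adjusted p 0.739), where the authors' deposited table gives 2.26 with a false discovery rate of 0.0242. Kif5A over IgG in dorsal root was −0.42 ± 1.36 (adjusted p 1.00). The comparisons with input and with IgG share the Kif5A libraries.

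**Figure D3:**
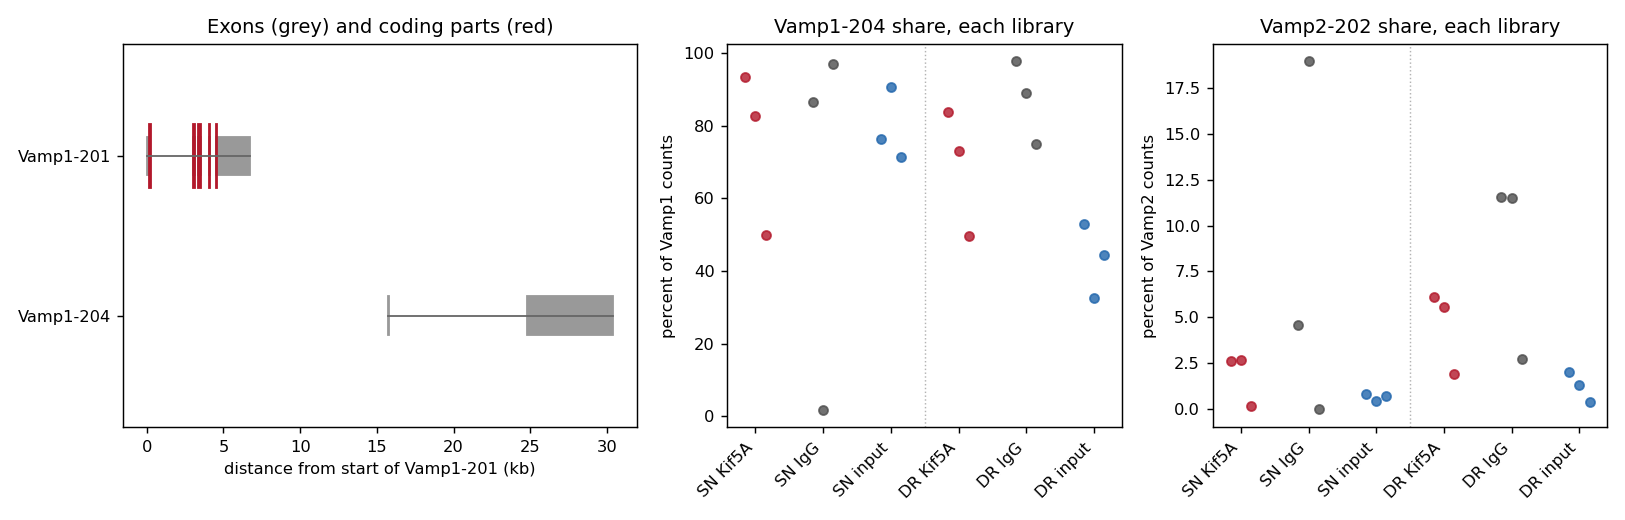
Left, exons of Vamp1-201 and Vamp1-204 as grey boxes, with coding parts in red, by distance from the start of Vamp1-201 in kilobases. Middle and right, percent of the Vamp1 counts on Vamp1-204 and of the Vamp2 counts on Vamp2-202 in each library (SN, sciatic nerve; DR, dorsal root; red Kif5A, grey IgG, blue input): the Vamp1-204 share is higher in all 3 sciatic nerve inputs than in the dorsal root inputs, and the Vamp2-202 share reaches 19.0% in 1 IgG library.

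Further genes of the same machinery were also lower in sciatic nerve input. Over all 12215 genes tested, 218 were called lower and 285 higher. Of 34 other neuronal SNAREs and fusion factors 19 were tested, 5 were called lower and 0 higher, with a median log2 fold change of −0.54. The 5 were the small GTPase Rab3c (−4.10), its effector Rph3a (−2.97), the complexin Cplx1 that clamps the SNARE bundle (−2.84), the calcium sensor Syt2 (−2.68) and Nsf (−1.10), the ATPase that takes SNARE bundles apart, which was named after its value was seen. Of 29 other vesicle proteins 15 were tested, and the 2 called lower were the endophilin Sh3gl2 (−3.89) and the synaptogyrin Syngr3 (−3.45), with 0 higher and a median of −0.28. Of 37 SNAREs of other membranes 33 were tested and 0 were called in either direction at the adjusted threshold, with 1 at an unadjusted p under 0.05 and a median of 0.13. These lists were chosen with earlier results of the data known, and the difference between lists was not tested. Without sciatic nerve input replicate 3, 1222 of 12330 genes were called lower and 1316 higher. The other neuronal SNAREs and fusion factors then had 7 of 19 called lower and 1 higher (median −0.65). The other vesicle proteins had 6 of 15 lower and 1 higher (−0.21). The SNAREs of other membranes had 3 of 34 lower and 1 higher (−0.05), the lower ones near the share over all genes. The 7 genes named above were again called lower.

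**Figure D4:**
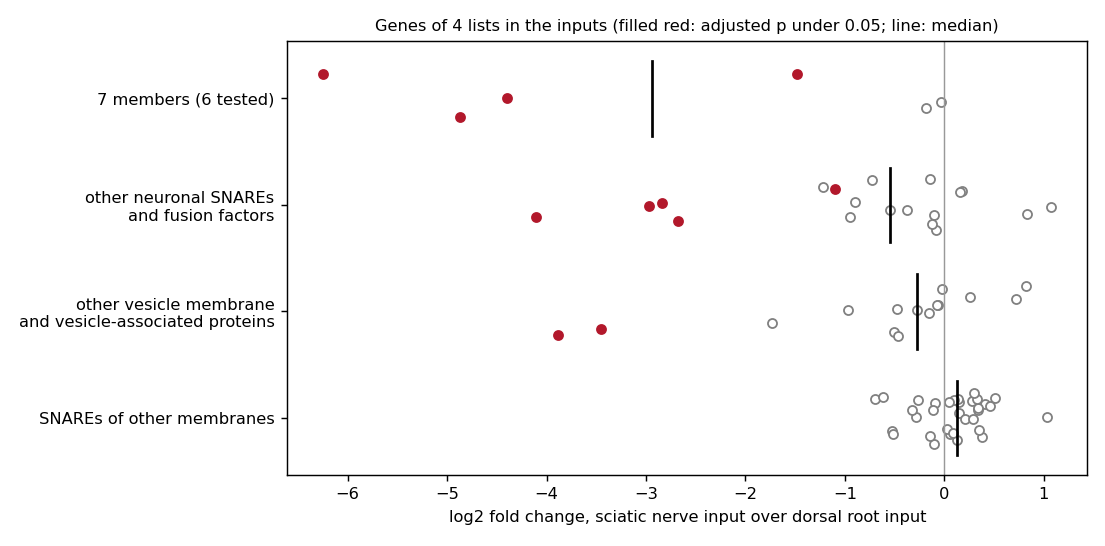
Log2 fold change of sciatic nerve input over dorsal root input for the tested members and for the tested genes of 3 further lists; each point is a gene, filled red where the adjusted p was under 0.05, and black lines are list medians. The medians are −2.94, −0.54, −0.28 and 0.13 from top to bottom.

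Markers of several other cell types differed between the inputs, in both directions. The central glia markers measured in both tables, 5 of 9, summed to between 49.0 and 127 CPM in sciatic nerve inputs, against 1126 to 1531 CPM in dorsal root inputs, and Gfap, Aqp4, Slc1a2 and Mobp were called lower. The sensory neuron markers, 8 of 17, summed to between 106 and 130 CPM in sciatic nerve inputs, against 285 to 320 CPM in dorsal root inputs. Among these Tubb3 (−3.29), Nefl (−2.76) and Nefm (−2.15) were called lower. Nefh (−1.37), Isl1 (−0.73), Calca (0.43), Uchl1 (0.16) and Pvalb (0.16) were not called. None of 6 motor neuron markers was in both tables, and Chat and Slc5a7 were in the dorsal root table alone. Among markers of spinal interneurons, Gad2, Slc32a1, Slc6a5 and Lhx1 were in the dorsal root table alone. Adipocyte markers were higher in sciatic nerve, at 1279 to 4331 CPM in sciatic nerve inputs, against 39.8 to 51.0 CPM in dorsal root inputs. So were those of mast cells (305 to 350.2 CPM, against 2.18 to 4.77 CPM in dorsal root), skeletal muscle (633 to 789 CPM, against 63.5 to 107 CPM) and fibroblasts (7903 to 22287 CPM, against 4623 to 5854 CPM), with 4 of 4, 4 of 4, 4 of 5 and 2 of 6 tested markers of these 4 cell types called higher. Of all 12215 genes tested, 285 were called higher and 218 lower. Myelinating Schwann cell markers overlapped between the inputs, at 19682 to 29556 CPM in sciatic nerve and 23552 to 31193 CPM in dorsal root, with 1 of 9 called lower. Those of non-myelinating Schwann cells overlapped too, with 1 of 5 called higher, and the chromaffin marker Chga, the tested 1 of 5, was not called. Without sciatic nerve input replicate 3, 4 of 5 central glia markers and 4 of 8 sensory neuron markers were called lower, Nefh (−1.82) being added, 5 of 9 myelinating Schwann cell markers and Chga were called lower, and Uchl1 was at −1.43 (adjusted p 0.0514). In that setting 1222 of 12330 genes were called lower. The part of these cells in the lower Snap25, Sv2a, Syn2 and Syp was not tested.

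The Kif5A precipitates address which RNAs come down with the motor beyond the isotype control. None of the members was higher with Kif5A than with IgG in either tissue at an adjusted p under 0.05. In sciatic nerve edgeR called 6 of 12551 genes in either direction (0.0478%), and in dorsal root it called 0 (0.0%), with 750 at an unadjusted p under 0.05 and 151 called by DESeq2. The median log2 fold change of the 6 members tested was −0.15 in sciatic nerve, against −0.02 over all genes, and 0.33 in dorsal root, against −0.01.

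Snap25 was the member whose sciatic nerve precipitates lay furthest apart relative to their error. It had 28.7, 22.7 and 31.4 CPM with Kif5A, against 77.1, 70.8 and 72.3 CPM with IgG. All 3 Kif5A libraries were below all 3 IgG libraries, as for 6.62% of genes. The log2 fold change was −1.37 ± 0.24 (SE), 2.58-fold lower, with an adjusted p of 0.0807, so it did not pass the threshold. Of the alternatives tried, DESeq2 called it (adjusted p 1.09e-06) and the others gave adjusted p-values of up to 0.282. The authors' deposited table gives −1.37 for Snap25-201 with a false discovery rate of 0.0430.

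The same IgG libraries lay above the sciatic nerve inputs. Snap25 was higher with IgG than in the input, where its levels were 28.9, 30.9 and 27.9 CPM, and its 3 IgG libraries lay above the 3 inputs, as for 9.89% of genes. The log2 fold change was 1.33 ± 0.22 (SE), 2.51-fold, with an adjusted p of 0.0101, and it was the only member called in this comparison, in which 1.37% of 12681 genes were called higher. The call was lost when only these 2 groups were fitted (adjusted p 0.134) and when the sciatic nerve table was fitted on its own (0.0847), and held when any 1 library was left out (0.0079 to 0.0411). Kif5A over input gave −0.08 ± 0.22 (SE) for Snap25 in sciatic nerve (adjusted p 0.998), and −0.11 without sciatic nerve input replicate 3, where IgG over input was 1.298 (adjusted p 0.0219). These comparisons share libraries with each other. Summed adipocyte markers were 1994 to 12161 CPM with Kif5A, 12354 to 27393 CPM with IgG and 1279 to 4331 CPM in the inputs, and summed sensory neuron markers were 82.3 to 121, 46.9 to 132 and 106 to 130 CPM in the same order; their part in the Snap25 levels was not tested.

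In dorsal root precipitates Snap25 had 437, 542 and 420 CPM with Kif5A, against 558, 749 and 701 CPM with IgG. The Kif5A libraries were again the lower ones, as for 5.43% of genes, and the log2 fold change was −0.47 ± 0.24 (SE, adjusted p 0.901). They were also below all 3 inputs, which 15.6% of genes were, at a log2 fold change of −0.41 ± 0.22 (adjusted p 0.654). The Kif5A over IgG ratio of Snap25 differed between sciatic nerve and dorsal root by −0.90 ± 0.34 (log2, SE, unadjusted p 0.0200, adjusted p 0.644). No member passed the threshold for this difference between tissues, in which 0.0159% of 12551 genes were called.

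Vamp2 had 474, 461 and 464 CPM in dorsal root Kif5A precipitates, against 399, 305 and 341 CPM with IgG. All 3 Kif5A libraries were higher, as for 7.83% of genes, and the log2 fold change was 0.47 ± 0.29 (SE, adjusted p 0.997). In sciatic nerve the levels were 230.0, 251 and 417 CPM with Kif5A, against 351, 271 and 209.7 CPM with IgG, and these overlapped (0.16 ± 0.29, adjusted p 0.963).

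Syn2 in dorsal root had 33.6, 32.9 and 29.9 CPM with Kif5A, against 15.8, 5.14 and 22.3 CPM with IgG. The Kif5A libraries were all higher, as for 7.83% of genes, and close together, while the IgG libraries ran from 5.14 to 22.3 CPM, and the log2 fold change was 1.21 ± 1.03 (SE, adjusted p 1.00). In sciatic nerve the counts were 57, 29 and 36 with Kif5A, against 9, 100 and 3 with IgG. A single IgG library there held more counts than any Kif5A library, and the log2 fold change of 0.44 ± 1.03 ranged from −0.11 to 3.05 when 1 library was left out.

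Sv2a in dorsal root had 59.97, 55.4 and 74.1 CPM with Kif5A, against 12.6, 55.7 and 16.9 CPM with IgG. IgG replicate 2 lay among the Kif5A libraries, and the other two were far below. The log2 fold change was 1.21 ± 0.63 (SE, adjusted p 0.929), and 2.15 without that library (adjusted p 0.462). The authors' deposited table gives 1.40 for Sv2a-201 with a false discovery rate of 0.0909. In sciatic nerve, with 3, 4 and 8 counts with Kif5A against 7, 8 and 14 counts with IgG, the log2 fold change was −0.65 ± 0.70 (adjusted p 0.930).

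Syp had 28.1, 16.8 and 24.6 CPM in sciatic nerve Kif5A precipitates, against 23.5, 1.17 and 7.99 CPM with IgG. The IgG libraries spread widely and reached into the Kif5A range, at a log2 fold change of 1.13 ± 0.78 (SE, adjusted p 0.819). In dorsal root Syp had 60.03, 57.6 and 99.5 CPM with Kif5A, against 32.3, 62.4 and 104 CPM with IgG, and the groups overlapped. Vamp1 had 6.75, 8.72 and 3.78 CPM with Kif5A, against 5.40, 2.83 and 18.5 CPM with IgG in sciatic nerve. It had 11.4, 12.9 and 6.26 CPM with Kif5A, against 9.02, 16.7 and 13.8 CPM with IgG in dorsal root. Both pairs of Vamp1 groups overlapped.

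Against the input, no member was called in the Kif5A precipitates of either tissue. In dorsal root edgeR called 0 of 12681 genes (0.0%), with 1064 at an unadjusted p under 0.05 and 168 called by DESeq2, and in sciatic nerve it called 1 (0.00789%), which was no member. The member with the largest such difference was Sv2a in sciatic nerve, at −1.52 ± 0.69 (log2, SE, unadjusted p 0.0414, adjusted p 0.806), and −1.54 without sciatic nerve input replicate 3 (adjusted p 0.568). In dorsal root the log2 fold changes other than that of Snap25 lay between 0.02 for Sv2a and 0.25 for Vamp2. IgG over input in dorsal root, where 1.23% of 12681 genes were called, gave no call among the members. Its largest differences were −1.13 ± 0.59 for Sv2a and −1.03 ± 1.00 for Syn2 (SE), and both had all 3 IgG libraries below the 3 inputs, as did 18.1% of genes.

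**Figure D5:**
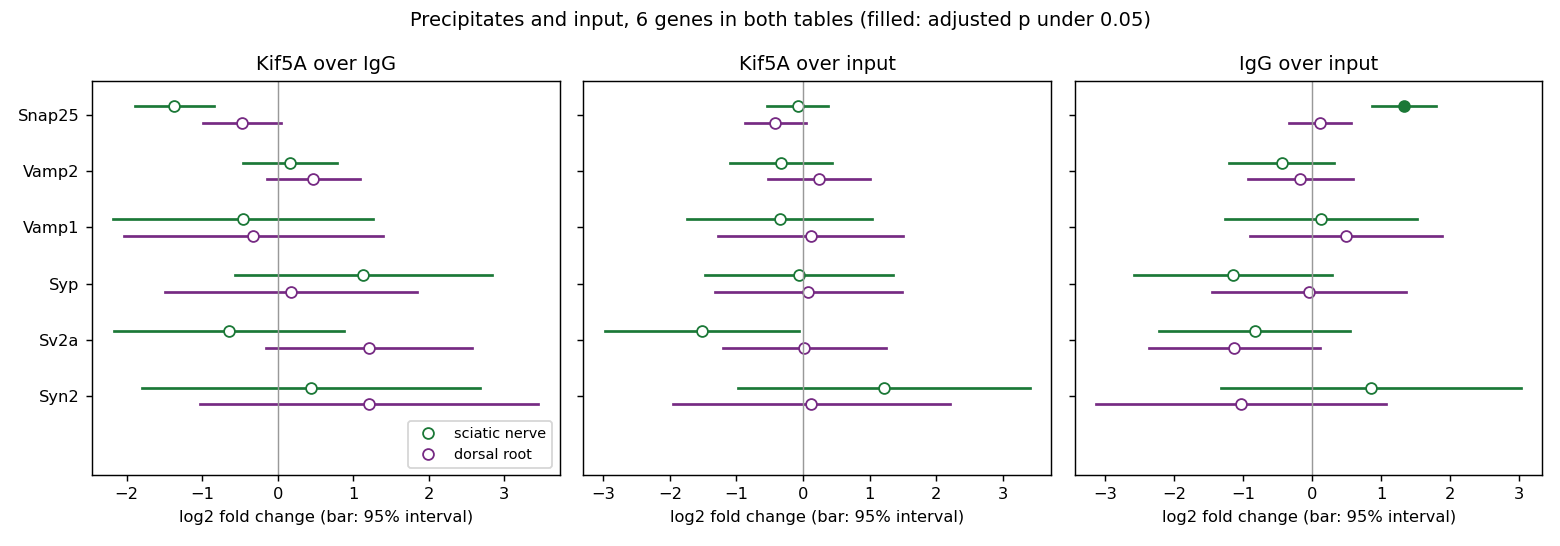
Log2 fold change of Kif5A over IgG, Kif5A over input and IgG over input for 6 genes in sciatic nerve (green) and dorsal root (purple), with 95% intervals; a filled point has an adjusted p under 0.05. Snap25 with IgG over input in sciatic nerve (1.33) is the filled point, and its Kif5A over IgG value there is −1.37.

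Besides Syn2-201 and Syn1-201, 4 transcripts of the members were listed in the dorsal root table alone, all annotated as noncoding forms. Snap25-203, which retains an intron, had 11, 28 and 0 counts with Kif5A, against 0 in all 3 IgG libraries. Syp-205, of the same kind, had 17, 115 and 11 counts with Kif5A and Vamp2-204, a processed transcript, had 8, 29 and 10, again against 0 in all 3 IgG libraries. The inputs held 21, 21 and 18 counts of Snap25-203, 14, 8 and 27 of Syp-205 and 8, 1 and 2 of Vamp2-204. All 3 were thus present in input RNA at low counts and listed at 0 with IgG. In dorsal root IgG libraries 5.65% to 9.18% of genes were at 0. The share of all transcripts at 0 in every IgG library is not given here, so these zeros are no trait particular to the members. The authors' deposited table gives log2 fold changes of Kif5A over IgG of 6.12, 8.08 and 6.82 for Snap25-203, Syp-205 and Vamp2-204, with false discovery rates of 0.0267, 0.00216 and 0.00371; against a group at 0 such a value depends on the prior count. Vamp2-203, with 22, 20 and 12 counts with Kif5A against 4, 13 and 14 with IgG, had groups that overlapped.

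No gene of the other lists was called for Kif5A over IgG in either tissue. Over all 12551 genes, 6.18% were higher and 2.26% lower with Kif5A in sciatic nerve at an unadjusted p under 0.05, and 4.33% higher and 1.65% lower in dorsal root. In sciatic nerve 21 other neuronal SNAREs and fusion factors were tested, 3 were higher at an unadjusted p under 0.05 and 0 lower, with a median log2 fold change of 0.27. These 3 were Rab3b (5.06), Unc13a (3.04), which primes vesicles for fusion, and Rab3a (3.06), with adjusted p-values of 0.351, 0.445 and 0.507. IgG counts were low: summed over 3 libraries, Rab3b had 98 with Kif5A and 3 with IgG, Unc13a 323 and 46, and Rab3a 71 and 10. For Kif5A over input in sciatic nerve their log2 fold changes were −0.44, 1.11 and 0.51, without a call. Of 15 other vesicle proteins 1 was higher at an unadjusted p under 0.05, Scamp5 (1.07, adjusted p 0.332), and of 34 SNAREs of other membranes 3 were higher and 1 lower. Snap23, the widespread relative of Snap25, had 34 counts over the 3 Kif5A libraries and 0 over the 3 IgG libraries of sciatic nerve (adjusted p 0.422). In dorsal root the same lists had 0, 1 and 3 genes at an unadjusted p under 0.05, Syngr3 (3.07) among the vesicle proteins, and Ykt6 (0.93), Stxbp4 (1.09) and Stx4a (−1.50) among the SNAREs of other membranes.

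Across the 18 libraries, Snap25, Sv2a and Syn2 were alike, with Pearson correlations of log2(CPM + 0.5) of 0.935 for Snap25 and Sv2a, 0.864 for Syn2 and Sv2a and 0.837 for Snap25 and Syn2. Vamp1 and Vamp2 stood at 0.014. These libraries share 6 groups and 2 tissues, so the values mostly restate the tissue difference and are given as a description. Among 7057 genes above 10 CPM on average, the genes most like the mean of the members were Wnt4 (0.984), Aqp4 (0.980), Slc4a1 (0.978), Car2 (0.976) and Ngp (0.976), each low in sciatic nerve. The gene most like Snap25 was Ptgds (0.977), that most like Sv2a was Wnt4 (0.974), that most like Syn2 was Gnao1 (0.920), that most like Syp was Soga3 (0.945), that most like Vamp2 was Napa (0.874) and that most like Vamp1 was Cep97 (0.812).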

How the data were processed

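RNA of 18 libraries (SMART-Seq v4, amplified by PCR, without molecular identifiers) was read from 1 table per tissue of raw counts per transcript, deposited by the authors. The genome build mm10 (GRCm38) and the tools CASAVA 1.8.2 and edgeR are named in the submitters' processing notes. Aligner, counting tool and use of strand: not given in the sources used here. Per the file headers, the same tables hold the authors' log2 fold changes and false discovery rates (adjusted p-values), quoted only where named. Rows without a gene name (0.138% to 0.237% of counts) were left out.

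Counts of the 16878 named transcripts in both tables were summed to 12697 genes, with library size the named total of the tissue's own table. The test was quasi-likelihood (edgeR 4.0.16 in R 4.3.3, robust fit, TMM factors, low counts filtered by group). Of the 7 members 6 passed the filter. A run on simulated data used a fixed spread and planted changes only in genes of higher level. It therefore does not cover low counts or the spread between IgG libraries. All tests were two-sided, with Benjamini-Hochberg adjustment over all genes tested and a threshold of 0.05. Kif5A over IgG came from a fit of the 12 precipitates, ratios to input from a fit of all 18 libraries, and sciatic nerve over dorsal root from the 6 inputs. SE and 95% intervals come from these fits. Single transcripts were fitted in the same way. Transcript lengths and positions are from GENCODE M21, promoter windows from RefSeq, which gave windows for Sv2a, Syn2, Vamp1, Syp and Syn1.

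Libraries of equal number share their repeat of animals only if the numbers run alike in both tissues. Their deviations from the group means correlated at 0.130 to 0.384 for the 6 inputs, above 0.1 in every pair. Replicate 2, the lowest at 0.130, correlated higher with another number (0.275). Between the inputs the fit with a replicate block changed no call of a member. The members and lists were chosen with earlier results of these data known. The rule for named genes was the 7 members always, and up to 4 genes of each further list with the smallest p or at 0 in a group. Alternatives were other size factors, no low-count filter, all transcripts of each table, a replicate block, DESeq2 1.42.0, the 2 groups alone and leaving out each library; fitting each tissue's table alone, single transcripts, and lists, markers and transcripts without sciatic nerve input replicate 3 were chosen after seeing the data. A result for spinal interneuron markers is not reported here.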

Additional observations from a re-analysis of the deposited data

How the results depend on the processing

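Of 714 alternative values of the 6 members in 8 comparisons, 678 kept their direction. Snap25 and Sv2a were called lower in sciatic nerve input under every alternative run. The adjusted p of Syn2 there ranged up to 0.0604 and that of Syp up to 0.194.

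Of the 36 reversed values, 28 came from leaving out 1 library. For Kif5A over input in dorsal root, Sv2a was −0.0059 with the replicate block and −0.0042 in its own table, and Syn2 was −0.065 with all transcripts and −0.082 in its own table. With library size alone, Kif5A over input in sciatic nerve was 0.089 for Snap25 and 0.13 for Syp, and IgG over input in dorsal root was 0.15 for Syp and 0.059 for Vamp2. The cause was not tested. Leaving out 1 library gave ranges that crossed 0: for Kif5A over IgG, Syp in dorsal root (−0.15 to 0.67) and, in sciatic nerve, Syn2 (−0.11 to 3.05), Vamp1 (−0.89 to 0.70) and Vamp2 (−0.16 to 0.36); for the difference between tissues, Syn2 (−1.32 to 1.84) and Vamp1 (−0.56 to 1.02). For Kif5A over input they were Sv2a (−0.062 to 0.14), Syp (−0.17 to 0.22) and Vamp1 (−0.087 to 0.42) in dorsal root, and Snap25 (−0.18 to 0.042), Syp (−0.25 to 0.35) and Vamp2 (−0.65 to 0.29) in sciatic nerve. For IgG over input they were Syp (−0.53 to 0.28) and Vamp2 (−0.30 to 0.12) in dorsal root, and Syn2 (−1.79 to 1.40), Vamp1 (−0.99 to 0.55) and Vamp2 (−0.68 to 0.18) in sciatic nerve. For the inputs it was Vamp2 (−0.68 to 0.23).

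Counts of called genes varied more. Kif5A over IgG called 6 in sciatic nerve, 411 with DESeq2, 1 with the replicate block, 0 with the 2 groups alone, 1 in its own table and 0 to 29 without 1 library. In dorsal root it called 0, 151 with DESeq2 and 0 to 2 without 1 library. The difference between tissues called 2, 4 with DESeq2 size factors and with library size alone, 0 with all transcripts and with the replicate block, 188 with DESeq2 and 0 to 24 without 1 library. Kif5A over input called 1 in sciatic nerve, 48 with DESeq2, 0 with the 2 groups alone and in its own table, and 0 to 6 without 1 library. In dorsal root it called 0, 168 with DESeq2, 390 with the 2 groups alone, 1 in its own table and 0 to 1 without 1 library. IgG over input called 474 in sciatic nerve, 1414 with DESeq2, 5 with the 2 groups alone and in its own table, and 53 to 849 without 1 library. In dorsal root it called 156, 302 with library size alone, 621 with the replicate block, 1417 with DESeq2, 0 with the 2 groups alone and in its own table, and 5 to 1339 without 1 library. The inputs called 503, 1064 with DESeq2 and 220 to 2538 without 1 library, the highest without sciatic nerve replicate 3. Outside the inputs, libraries of equal number correlated at −0.014 to 0.326, not above 0.1 in every pair of any comparison. These correlations cannot tell whether such libraries share animals. For Kif5A over IgG and for Kif5A over input, the same number gave a higher value than any other number in each replicate of both tissues.

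Depth limits Sv2a, Syn2 and Vamp1 in sciatic nerve, and Syn1. Intervals cover counting and the spread between 3 pooled repeats.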
